A study of Mus musculus with 11 samples.

Results

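The 40 genes described here carry symbols of interleukin and colony-stimulating factor receptors, and were chosen by symbol rather than by a known ligand. They are the genes whose symbol starts with Il, a number and the letter r, together with Csf2ra, Csf2rb, Csf2rb2, Csf3r and Il6st and without the secreted antagonist Il1rn, and they were taken from 19938 genes that had a probe set with a single symbol. Their transcripts were read from 11 Affymetrix arrays that cover 6 sorted cell populations of C57BL/6J mice, for which the labels give no genotype or treatment beyond the strain. From bone marrow came stem cells of the blood (HSC), multipotent progenitors primed for the lymphoid fate (LMPP) and common lymphoid progenitors (CLP), and from thymus came early thymic precursors (ETP), double negative 2 cells (DN2) and double negative 3 cells (DN3). There were 2 arrays of each population and 1 of DN2, so every value for DN2 lacks a replicate. The sources used here give no ages, animal numbers or sort gates. Since nothing says that replicates came from separate animals, p-values measure only the spread between these arrays, which may be technical. Il7r and Il2ra commonly serve as sort markers for these cells, and their differences may then be set by the sort itself. The counts and shares of called receptors below include both genes, so part of any excess over all genes may come from the sort.

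Most interleukin receptors are built from a chain that binds its own cytokine and a chain shared with other receptors. Receptors of the common gamma chain, the common beta chain, gp130 and the class II family signal through JAK kinases and STAT factors, whereas receptors of the IL-1 and IL-17 families signal through other adaptors. IL-7 sustains lymphoid progenitors in marrow and thymus, granulocyte colony-stimulating factor drives neutrophil production, and IL-2 receptor alpha marks the DN2 and DN3 stages. In sorted bulk cells a lower level in each cell and a smaller share of expressing cells cannot be told apart.

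The labels were checked against lists of marker genes, with mixed results for HSC, LMPP, ETP and DN2. The 7 measured stem cell markers of 8 listed had a mean level of 7.21 to 7.23 in HSC and 6.35 to 6.65 in LMPP. Of these Slamf1 was at 7.67 and 7.42 in HSC and at 5.68 or below on every other array, but Hlf was at 8.91 and 8.32 in HSC against 8.55 and 9.34 in LMPP, Mecom had like levels in both, and Mllt3 was highest in DN3. The HSC arrays also had the highest levels of Car1 (11.17 and 10.63), Pf4 (10.95 and 10.98) and Elane (8.32 and 8.89), genes of red cell, platelet and granulocyte lineages. Of the 4 LMPP markers only Cd34 was called between LMPP and CLP, lower in CLP. The mean of these markers was 11.09 to 11.22 in LMPP and 10.87 to 11.07 in CLP. That of the 5 ETP markers was 8.03 to 8.16 in ETP and 8.13 in DN2, and that of the 5 DN2 markers 9.29 in DN2 and 9.37 to 9.42 in DN3, so neither list set its population apart from the next. Ebf1, a B lineage factor, was at 9.32 and 9.22 in CLP and at 5.43 or below elsewhere, and Cd3e, a T cell receptor chain, was at 9.64 and 9.59 in DN3 and at 7.07 or below elsewhere. Replicates correlated across genes, which are not independent, at r = 0.9882 for HSC up to 0.9957 for DN3. The HSC replicates stood furthest apart by this measure. Array medians lay between 6.01 and 6.12, all values being log2 intensities by the authors' RMA (background correction, quantile normalization and summary per probe set). Levels of different genes come from different probe sets and are not set against each other.

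Of the 40 receptor genes 14 (35%) differed among the 6 populations in the limma F test (Benjamini-Hochberg adjusted p under 0.05), against 12.2% of all 19938 genes. The 14 were Il7r, Il2ra and Il4ra of the common gamma group, Csf3r, Il31ra, Il6st and Il12rb2 of the gp130 and IL-12 group, Il18r1, Il18rap and Il1r2 of the IL-1 family, Il10ra and Il10rb of the class II family, and Il17ra and Il17rb. The largest and smallest population means of a receptor gene differed by a median of 0.59 on the log2 scale, against 0.34 for all genes. That difference exceeded 2 for 9 of the 40 genes, against 2.11% of all genes. Of the 14, CLP had the highest mean for 6 and DN2 for 4, and HSC and DN3 each had the lowest for 5. The DN2 mean is a single array, and like counts were not made over all genes. The levels of the 14 genes are shown in the plot by array.

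**Figure D1:**
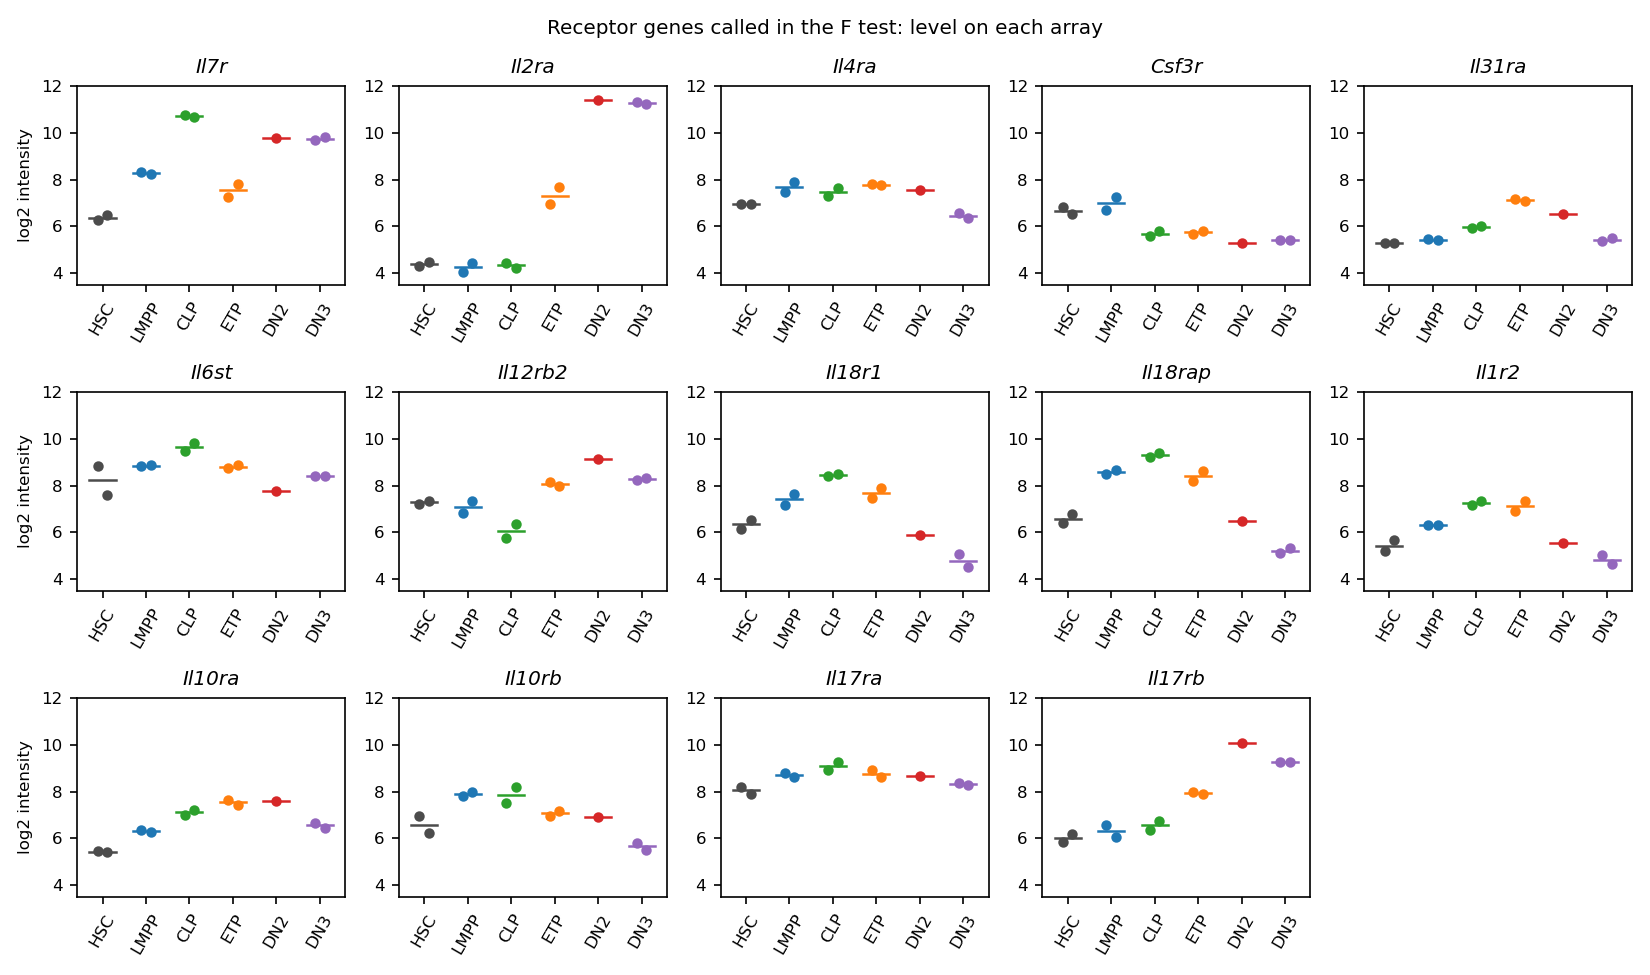
Log2 intensity of the 14 receptor genes called in the F test on each array (points) with the mean of each population (bars); HSC, LMPP, CLP, ETP and DN3 have 2 arrays and DN2 has 1. Il2ra lies between 4.07 and 4.49 in the 3 marrow populations and between 11.23 and 11.40 in DN2 and DN3, and Il18rap runs from 9.38 in CLP down to 5.13 in DN3.

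Between HSC and LMPP 7 of 40 receptors were called (17.5%, against 2.94% of all genes). All 7 were higher in LMPP (1.23% of all genes were called higher) and 0 were lower (1.71% of all genes), with 1 lower at an unadjusted limma p under 0.05. Without LMPP replicate 2 the count was 3. Unlike the called receptors, several marker lists of other cells had lower means in LMPP. The mean of the 6 measured erythroid and megakaryocyte markers of 7 listed was 7.95 to 8.15 in HSC and 5.75 to 5.87 in LMPP. That of the 5 mast cell and basophil markers was 6.81 to 6.86 and 5.28 to 5.35, and that of the 7 neutrophil and monocyte markers 8.63 to 9.06 and 7.42 to 7.54. Car1 differed 49.7-fold, Pf4 43.2-fold and Cpa3, a mast cell protease, 34.6-fold. Their part in the receptors' differences was not tested. The receptors called were Il18rap, Il7r, Il10rb, Il18r1, Il1r2, Il10ra and Il4ra. The median difference of the 40 was 0.13, against 0.034 over all genes. In CLP against LMPP 5 were called (12.5%, against 1.14% of all genes). Il7r, Il10ra and Il31ra were higher in CLP (7.5%, against 0.602% of all genes), whereas Csf3r and Il12rb2 were lower (5%, against 0.542%). The count was 3 without LMPP replicate 1, CLP replicate 2 or any ETP or DN3 replicate, 2 without LMPP replicate 2 and 1 without CLP replicate 1. The median of the 40 was 0.0083, against -0.018 over all genes.

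Entry to the thymus was covered by ETP against LMPP and against CLP, which share the ETP arrays. Against LMPP 6 were called (15%, against 2.31% of all genes), with Il2ra, Il31ra, Il17rb, Il10ra and Il12rb2 higher in ETP (12.5%, against 1.44% of all genes) and Csf3r lower (2.5%, against 0.868%). Against CLP 6 were called (15%, against 2.52% of all genes), with Il2ra, Il12rb2, Il17rb and Il31ra higher in ETP (10%, against 1.41% of all genes) and Il7r and Il18rap lower (5%, against 1.1%). With the arrays quantile normalized once more, 50.3% of the genes called between ETP and LMPP were higher in ETP, against 62.4% as deposited. The medians of the 40 were -0.027 and -0.031, against -0.029 and -0.0082 over all genes.

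Within the thymus, 6 receptors were called between the DN2 array and ETP (15%, against 0.998% of all genes). Il2ra, Il7r and Il17rb were higher in DN2 (7.5%, against 0.321% of all genes), and Il18rap, Il18r1 and Il1r2 lower (7.5%, against 0.677%). Of these Il2ra and Il7r may be sort markers, so the share higher in DN2 may partly be set by the sort. Between DN3 and the same DN2 array 4 were called (10%, against 1.8% of all genes), all lower in DN3 (1.09% of all genes were called lower): Il18rap, Il4ra, Il31ra and Il10ra. None was called higher in DN3 by limma (0.702% of all genes), and 1 was higher at an unadjusted p under 0.05. The count was 2 without either DN3 replicate. Between DN3 and ETP 10 were called (25%, against 6.57% of all genes), with Il2ra, Il7r and Il17rb higher in DN3 (7.5%, against 2.68% of all genes) and the other 7, Il18rap, Il18r1, Il1r2, Il31ra, Il10rb, Il4ra and Il10ra, lower (17.5%, against 3.89%). The median of the 40 was -0.095 for DN3 against DN2 and -0.14 for DN3 against ETP, and the median over all genes for the latter was -0.0029.

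**Figure D2:**
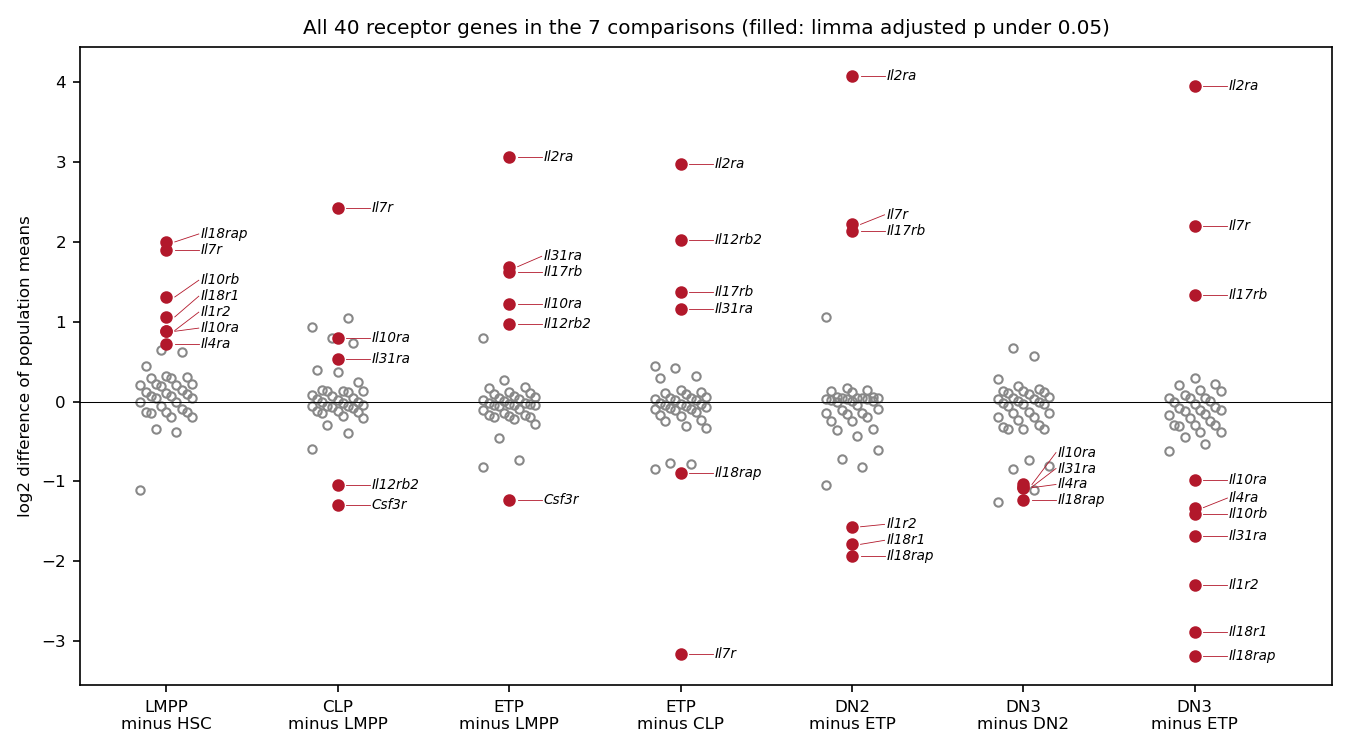
Difference of population means on the log2 scale for the 40 receptor genes in each of the 7 comparisons; filled points passed limma at adjusted p under 0.05 and carry their symbol, open points did not. All 7 filled points of LMPP minus HSC lie above 0 and all 4 of DN3 minus DN2 lie below it.

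Il7r, the alpha chain of the IL-7 receptor, rose in marrow, was lower in ETP and was high again in DN2 and DN3. It stood at 6.29 and 6.47 in HSC, 8.33 and 8.23 in LMPP, 10.75 and 10.66 in CLP, 7.27 and 7.83 in ETP, 9.77 in DN2, and 9.68 and 9.81 in DN3. No 2 of the populations overlapped except DN2 and DN3, since the DN2 value lay between the DN3 arrays. The difference was 1.90 ± 0.17 (SE) from HSC to LMPP (adjusted p = 0.000192), 2.43 ± 0.17 from LMPP to CLP (adjusted p = 6.75e-05) and -3.16 ± 0.17 from CLP to ETP, which is 8.91-fold (adjusted p = 4.66e-06). From ETP to DN2 it was 2.22 ± 0.21, or 4.67-fold (adjusted p = 0.000698), and from DN2 to DN3 it was -0.03 ± 0.21. ETP against LMPP missed the threshold at -0.73 ± 0.17 (adjusted p = 0.0587). The 5 genes called in the F test whose levels over the 11 arrays were most like those of Il7r were Mzb1 (r = 0.958), Bcl2l11 (0.937), Cmah (0.932), Rag2 (0.917) and Stambpl1 (0.916), a description over arrays of which replicates share a population. The common gamma chain gene Il2rg was not analysed here. Crlf2, which joins Il7r in the receptor for TSLP, ran only from 6.40 to 6.71 over the 11 arrays.

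The sequence before the RefSeq start site of Il7r is shown because this gene changed at 4 of the 5 consecutive steps covered. Windows of 250 bases before the start were searched on both strands for the letters of 6 motifs of factors at work in these cells. E proteins were searched as CAGGTG and STAT factors as TTCNNNGAA. RUNX factors were searched as TGTGGT and RBPJ, the partner of Notch, as TGGGAA. The motif of the GATA family was searched as AGATAA. The letters for PU.1 were GAGGAA. Overlapping matches were allowed. Over all 32851 windows, 17.2% held the E protein letters, 7.02% the STAT letters, 14% the RUNX letters, 21.6% the RBPJ letters, 9.99% the GATA letters and 23.3% the PU.1 letters. For the receptors 35 windows of 32 genes were found, and the number holding those letters was 6, 6, 3, 8, 6 and 13 in the same order. Sequences run 5′ to 3′ on the gene's strand in GRCm38.p6, and capitals mark matched letters.
Il7r, chr15:9529877-9530126, strand -: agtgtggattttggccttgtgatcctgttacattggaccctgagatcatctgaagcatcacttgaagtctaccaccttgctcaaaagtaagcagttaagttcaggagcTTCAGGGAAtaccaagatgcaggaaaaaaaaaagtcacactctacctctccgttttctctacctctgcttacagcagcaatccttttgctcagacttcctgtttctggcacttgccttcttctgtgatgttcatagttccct
The Il7r window held 1 match, the STAT letters, starting 142 bases before the start site. This motif is its own reverse complement, so a match has no direction. A match describes letters and does not show a bound site.

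Il2ra, the alpha chain of the IL-2 receptor, had the widest range of the 40 genes, 7.14 between population means. It stood at 4.31 and 4.49 in HSC, 4.07 and 4.45 in LMPP, 4.44 and 4.24 in CLP, 6.96 and 7.68 in ETP, 11.40 in DN2, and 11.30 and 11.23 in DN3. The marrow populations overlapped one another, ETP lay apart from both sides, and no thymic array overlapped a marrow array. ETP was 8.33-fold above LMPP (3.06 ± 0.21, adjusted p = 3.79e-05) and DN2 was 16.9-fold above ETP (4.08 ± 0.26, adjusted p = 6.2e-05). The marrow level may lie near background, where the fold printed may differ from the fold in transcripts. This was not tested. Its nearest neighbour among coding genes is Il15ra, the alpha chain of the IL-15 receptor, which ran from 6.29 in CLP to 7.88 in HSC and was not called. Most alike over the 11 arrays were Cd3g (r = 0.991), Trat1 (0.984), Sytl3 (0.977), Mir363 (0.975) and Matn2 (0.975).

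Il4ra, the chain shared by the IL-4 and IL-13 receptors, stood at 6.96 on both HSC arrays, 7.46 and 7.91 in LMPP, 7.31 and 7.63 in CLP, 7.82 and 7.76 in ETP, 7.54 in DN2, and 6.56 and 6.35 in DN3. The DN3 arrays were the lowest of all, and LMPP, CLP, ETP and DN2 lay close together. DN3 was 2.52-fold below ETP (-1.33 ± 0.16, adjusted p = 0.000501) and 2.12-fold below DN2 (-1.08 ± 0.20, adjusted p = 0.0215). The call against DN2 was lost without either DN3 replicate (limma adjusted p = 0.0653 and 0.165). The rise from HSC to LMPP (0.72 ± 0.16, adjusted p = 0.0454) was lost without either HSC replicate, LMPP replicate 2, either ETP or either DN3 replicate (adjusted p from 0.0748 to 0.23).

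The other 6 measured genes placed in the common gamma group, Il2rb, Il9r, Il13ra1, Il13ra2, Il15ra and Il21r, were not called in any comparison. Il13ra1 and Il13ra2, which bind IL-13, were placed there beside Il4ra and are not themselves common gamma chain receptors. Il2rb, the signalling chain shared by the IL-2 and IL-15 receptors, stayed between 4.91 and 5.62, with no call where Il2ra was called (5.06 and 5.02 in DN3 against 5.05 and 5.18 in ETP). Il21r, the IL-21 receptor, lies next to Il4ra in the gene order and ran from 6.39 to 6.83. Il13ra2, a decoy receptor for IL-13, was at 5.63 in HSC replicate 1 and between 3.04 and 3.43 on the other 10 arrays.

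The common beta chain group serves IL-3, IL-5 and granulocyte-macrophage colony-stimulating factor. None of its 5 genes was called in the limma F test, with 2 at an unadjusted p under 0.05. Csf2rb, the common beta chain, stood at 7.08 and 6.29 in HSC, 6.57 and 6.55 in LMPP, 6.55 and 6.81 in CLP, 6.65 and 6.53 in ETP, 5.77 in DN2, and 6.02 and 6.09 in DN3 (F test adjusted p = 0.102). All 3 DN arrays were below the other 8, and Csf2rb was called in the F test without HSC replicate 1 or HSC replicate 2. Its neighbour and near copy Csf2rb2, the mouse beta chain for IL-3, lay between 5.88 and 6.00 on the DN arrays and between 6.26 and 6.86 on the others. The pair are paralogs, and hybridisation shared between their probes was not tested. The alpha chains Csf2ra (6.83 to 7.51), Il3ra (7.04 to 7.48) and Il5ra (3.90 to 4.12) stayed in narrow ranges.

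In the gp130 and IL-12 group 4 of 8 genes were called in the F test. Csf3r, which binds granulocyte colony-stimulating factor, stood at 6.81 and 6.55 in HSC, 6.71 and 7.26 in LMPP, 5.57 and 5.80 in CLP, 5.69 and 5.79 in ETP, 5.31 in DN2, and 5.44 on both DN3 arrays. HSC and LMPP overlapped, and all their arrays lay above the other 7. CLP was 2.46-fold below LMPP (-1.30 ± 0.18, adjusted p = 0.0049; 0.0542 without CLP replicate 1) and ETP 2.37-fold below it (-1.24 ± 0.18, adjusted p = 0.00405). Both calls were lost when the 2 populations were fitted alone (limma adjusted p = 0.118 and 0.0704). The 7 measured neutrophil and monocyte markers of 8 listed had a mean level of 8.63 to 9.06 in HSC, 7.42 to 7.54 in LMPP, 6.62 to 6.77 in CLP, 8.21 to 8.52 in ETP, 6.92 in DN2 and 6.08 in DN3. Within the list Elane, S100a8 and S100a9 were called higher in ETP than in LMPP. Ctsg (9.16 and 9.56 against 8.79 and 8.45) and Mpo (10.76 and 10.67 against 10.46 and 10.64) also had higher values there. Only Prtn3 (7.02 and 7.15 against 7.48 and 7.46) and Lyz2 (7.88 and 8.59 against 8.71 and 8.65) had lower values in ETP, as Csf3r did, and neither was called. The part of the listed markers in the levels of Csf3r was not tested. Most alike to Csf3r over the 11 arrays were Hlf (r = 0.983), a stem cell transcription factor, Iigp1 (0.957), Gm4951 (0.949), Gcnt2 (0.945) and Epha7 (0.943).

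Il31ra, the chain that binds IL-31, was highest in ETP. It stood at 5.30 and 5.28 in HSC, 5.45 and 5.43 in LMPP, 5.94 and 6.00 in CLP, 7.17 and 7.09 in ETP, 6.52 in DN2, and 5.38 and 5.50 in DN3. ETP and DN2 lay apart from each other and above all other arrays. ETP was 3.23-fold above LMPP (1.69 ± 0.11, adjusted p = 3.12e-05) and 2.24-fold above CLP (1.16 ± 0.11, adjusted p = 0.000191). DN3 was 2.1-fold below DN2 (-1.07 ± 0.13, adjusted p = 0.00164) and 3.22-fold below ETP. The smaller rise from LMPP to CLP (0.53 ± 0.11, adjusted p = 0.048) was lost in 10 of the 11 fits that left out an array, all but that without DN2 (adjusted p from 0.0516 to 0.235). Osmr, the partner chain of Il31ra, stood at 4.66 and 4.50 in ETP, within its range over the other arrays. In ETP several marker lists of other cells were also at their highest or near it. The 6 dendritic cell markers had a mean level of 7.42 to 7.53 in ETP against 6.56 to 6.58 in LMPP and 6.71 to 7.17 in CLP. The 5 mast cell and basophil markers were at 6.31 to 6.53 in ETP against 5.28 to 5.35 in LMPP and 5.09 in CLP. That list was at 6.81 to 6.86 in HSC and 6.36 in DN2, and its member Cpa3 was highest in DN2 (11.06). Of the dendritic list only H2-Aa, H2-Ab1 and Cd74 were called higher in ETP than in LMPP or CLP. Siglech was called lower in ETP than in CLP (5.55 and 5.53 against 7.75 and 8.36). Of the mast cell and basophil list only Cpa3 was called against LMPP (9.76 and 10.22 against 5.08 and 4.92), and only Cpa3 and Mcpt8 against CLP. Gata2 of that list had a lower mean in ETP than in LMPP (6.56 against 6.66). The part of such cells in the levels of Il31ra and of the other receptors in ETP was not tested.

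Il12rb2, the signalling chain of the IL-12 receptor, was lowest in CLP. It stood at 7.22 and 7.36 in HSC, 6.85 and 7.36 in LMPP, 5.74 and 6.35 in CLP, 8.15 and 7.99 in ETP, 9.13 in DN2, and 8.24 and 8.34 in DN3. All thymic arrays lay above all marrow arrays. ETP was 4.06-fold above CLP (2.02 ± 0.21, adjusted p = 0.000412), and this call held in every fit that left out an array. The fall from LMPP to CLP (-1.05 ± 0.21, adjusted p = 0.0424) was lost without either HSC, ETP or DN3 replicate, LMPP replicate 2 or CLP replicate 1 (adjusted p from 0.0593 to 0.28), and the rise from LMPP to ETP (0.97 ± 0.21, adjusted p = 0.0416) without either HSC, ETP or DN3 replicate or LMPP replicate 1 (adjusted p from 0.0535 to 0.249). Its neighbour Il23r, the IL-23 binding chain, ran from 4.05 to 4.42 and was not called.

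Il6st, the gp130 chain shared by IL-6 and related cytokines, was called in the F test alone (adjusted p = 0.0296). It stood at 8.83 and 7.62 in HSC, 8.82 and 8.86 in LMPP, 9.47 and 9.81 in CLP, 8.74 and 8.86 in ETP, 7.75 in DN2, and 8.40 and 8.43 in DN3. CLP was highest, and the HSC replicates were further apart than HSC replicate 1 was from LMPP. The call was lost without each of 8 arrays in turn, those of LMPP, CLP, ETP or DN3 (limma adjusted p from 0.0547 to 0.13). Its neighbour is Il31ra. Il6ra (6.65 to 7.40), Il12rb1 (6.35 to 6.73) and Il27ra (6.07 to 6.44), which bind IL-6, IL-12 and IL-27 with their partners, were not called.

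Of the 7 measured IL-1 family receptors Il18r1, Il18rap and Il1r2 changed and the other 4 were not called. Il18r1 is the chain that binds IL-18, Il18rap its accessory chain, and Il1r2 a decoy that takes up IL-1 without signalling. Il18rap stood at 6.39 and 6.77 in HSC, 8.51 and 8.65 in LMPP, 9.24 and 9.38 in CLP, 8.21 and 8.61 in ETP, 6.47 in DN2, and 5.13 and 5.32 in DN3. Il18r1 stood at 6.16 and 6.55 in HSC, 7.19 and 7.64 in LMPP, 8.43 and 8.50 in CLP, 7.46 and 7.90 in ETP, 5.90 in DN2, and 5.06 and 4.52 in DN3. Il1r2 stood at 5.19 and 5.67 in HSC, 6.33 and 6.31 in LMPP, 7.17 and 7.34 in CLP, 6.90 and 7.35 in ETP, 5.56 in DN2, and 5.02 and 4.63 in DN3. For each of the 3 genes the DN3 arrays were the lowest of all, and LMPP, CLP and ETP lay above HSC, DN2 and DN3. The levels of Il18r1 over the 11 arrays had r = 0.98 with Il18rap and r = 0.96 with Il1r2, and Il18rap had r = 0.94 with Il1r2.

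**Figure D3:**
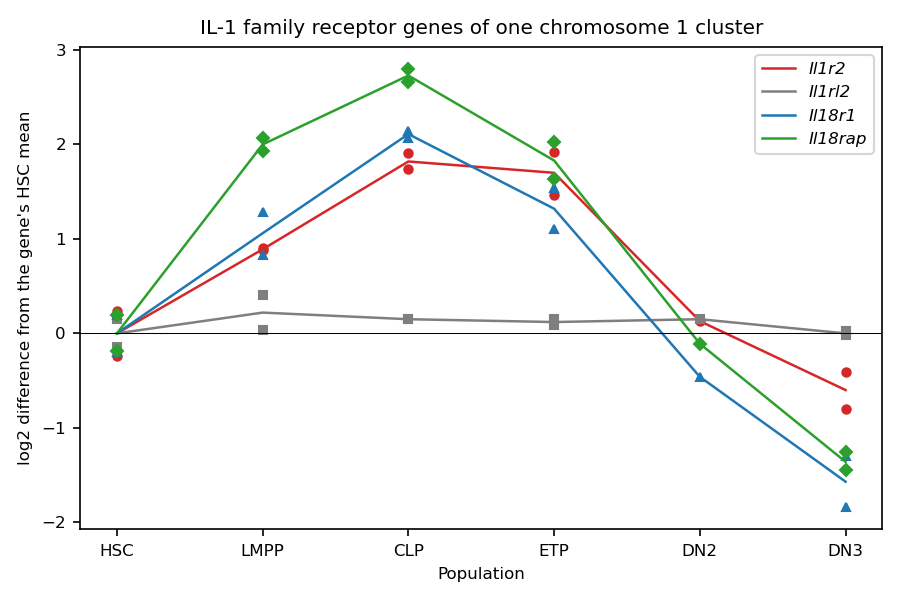
Difference of each array (points) and population mean (lines) from the gene's own HSC mean, on the log2 scale, for the 4 measured genes of the IL-1 receptor cluster on chromosome 1. The means of Il18rap, Il18r1 and Il1r2 rise to CLP and are lower in DN2 and DN3, whereas Il1rl2 stays within 0.22 of its HSC mean in every population.

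From HSC to LMPP Il18rap rose 4.0-fold (2.00 ± 0.17, adjusted p = 0.000123), Il18r1 2.08-fold and Il1r2 1.85-fold. The call of Il18r1 (1.06 ± 0.23, adjusted p = 0.0327) was lost without HSC replicate 1, LMPP replicate 2 or either CLP replicate (adjusted p from 0.0503 to 0.199). That of Il1r2 (0.89 ± 0.20, adjusted p = 0.0415) was lost without HSC replicate 1 or any LMPP, CLP or DN3 replicate (adjusted p from 0.0534 to 0.234). Neither passed from LMPP to CLP, with differences of 1.05 ± 0.23 for Il18r1 (adjusted p = 0.0645) and 0.93 ± 0.20 for Il1r2 (adjusted p = 0.0632). Il18rap was 1.86-fold lower in ETP than in CLP (-0.90 ± 0.17, adjusted p = 0.0195), a call lost without either CLP replicate or ETP replicate 1 (adjusted p from 0.0689 to 0.154).

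From ETP to DN2 Il18rap fell 3.84-fold (-1.94 ± 0.21, adjusted p = 0.00135), Il18r1 3.46-fold (-1.79 ± 0.28, adjusted p = 0.0121) and Il1r2 2.96-fold (-1.57 ± 0.24, adjusted p = 0.0124). Without ETP replicate 2 the calls of Il18r1 and Il1r2 were lost (adjusted p = 0.0887 and 0.0872). From ETP to DN3 they fell 9.11-fold, 7.43-fold and 4.92-fold in the same order (adjusted p = 9.71e-07, 1.75e-05 and 3.88e-05), and these 3 calls held in every fit that left out an array. Il18rap alone of the 3 also passed from DN2 to DN3 (-1.24 ± 0.21, adjusted p = 0.0112; 0.0864 without DN3 replicate 1). Natural killer cells use IL-18, and the 7 listed natural killer and innate lymphoid markers had a mean level of 5.37 to 5.44 in HSC, 5.32 to 5.33 in LMPP, 5.70 to 6.00 in CLP, 6.12 to 6.48 in ETP, 6.18 in DN2 and 5.92 to 6.04 in DN3. Its members ran different ways. Klrd1, a natural killer cell receptor chain, was at 4.22 and 4.46 in HSC, 6.24 and 5.59 in LMPP, 8.70 and 8.17 in CLP, 7.34 and 7.73 in ETP, 4.66 in DN2, and 4.49 and 4.14 in DN3, high and low in the same populations as Il18r1 and Il18rap. Gzma, a granule protease, was at 4.90 and 4.96 in LMPP and 11.16 and 11.21 in DN3. Between DN3 and ETP Klrd1, Gzmb and Nkg7 were called lower in DN3 and Gzma higher, and the other 3 markers, Ncr1, Klrb1c and Eomes, stayed at 5.16 or below on all arrays. The part of such cells in the IL-18 receptor levels was not tested.

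Il1r2, Il1rl2, Il18r1 and Il18rap lie in a cluster of IL-1 receptor genes on chromosome 1, in this order, with Il1r1 between the first pair and Il1rl1 between the middle pair; Il18r1 and Il18rap are direct neighbours, and Il1r1 and Il1rl1 were not analysed here. Il1rl2, a receptor for IL-36, ran from 4.82 to 5.37. Windows before the start of the 3 genes that moved together are shown with the motif letters in capitals.
Il1r2, chr1:40085843-40086092, strand +: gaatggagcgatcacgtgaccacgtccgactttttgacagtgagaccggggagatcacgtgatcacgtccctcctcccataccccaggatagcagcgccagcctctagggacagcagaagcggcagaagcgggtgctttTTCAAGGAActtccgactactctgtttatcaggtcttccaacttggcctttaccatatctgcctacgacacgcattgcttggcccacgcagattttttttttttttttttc
Il18r1, chr1:40465302-40465551, strand +: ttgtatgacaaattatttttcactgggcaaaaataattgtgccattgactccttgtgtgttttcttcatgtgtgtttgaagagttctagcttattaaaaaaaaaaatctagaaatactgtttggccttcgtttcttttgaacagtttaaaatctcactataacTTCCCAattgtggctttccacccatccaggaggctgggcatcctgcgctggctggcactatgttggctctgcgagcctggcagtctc
Il18rap, chr1:40515112-40515361, strand +: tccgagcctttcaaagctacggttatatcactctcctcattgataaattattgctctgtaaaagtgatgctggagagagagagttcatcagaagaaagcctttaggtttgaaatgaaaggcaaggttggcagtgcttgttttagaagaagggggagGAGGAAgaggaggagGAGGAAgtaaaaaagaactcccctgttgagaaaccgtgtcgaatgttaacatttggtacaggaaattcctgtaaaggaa
The Il1r2 window held the STAT letters 111 bases before its start, the Il18r1 window the RBPJ letters on the opposite strand 87 bases before, and the Il18rap window the PU.1 letters at 94 and 79 bases before. Il18r1 has 3 start sites in RefSeq and the window furthest upstream is printed. The window furthest downstream held the STAT, E protein, RBPJ and PU.1 letters, so that the printed windows share no motif while that one shares the STAT letters with Il1r2 and the PU.1 letters with Il18rap.

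Of the 6 measured class II receptors Il10ra and Il10rb changed. Il10ra, the chain that binds IL-10, stood at 5.46 and 5.42 in HSC, 6.37 and 6.26 in LMPP, 7.02 and 7.21 in CLP, 7.64 and 7.43 in ETP, 7.59 in DN2, and 6.68 and 6.43 in DN3. HSC, LMPP, DN3 and CLP each lay apart from one another, and DN2 fell between the ETP arrays. It rose 1.84-fold from HSC to LMPP (0.88 ± 0.13, adjusted p = 0.00548) and stood 2.33-fold above LMPP in ETP (1.22 ± 0.13, adjusted p = 0.000816). The rise from LMPP to CLP (0.79 ± 0.13, adjusted p = 0.0183) was lost without any LMPP or CLP replicate (adjusted p from 0.0516 to 0.155). DN3 was lower than ETP by 1.98-fold (adjusted p = 0.000986) and than DN2 by 2.05-fold (adjusted p = 0.00794; 0.076 without DN3 replicate 2).

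Il10rb, the chain shared by receptors of the IL-10 family, stood at 6.96 and 6.22 in HSC, 7.80 and 7.99 in LMPP, 7.50 and 8.18 in CLP, 6.96 and 7.17 in ETP, 6.92 in DN2, and 5.82 and 5.51 in DN3. LMPP and CLP overlapped at the top and DN3 was lowest. The rise from HSC to LMPP (1.31 ± 0.26, 2.47-fold, adjusted p = 0.0236) was lost without HSC replicate 2 or either LMPP replicate (adjusted p from 0.0867 to 0.138). DN3 was 2.65-fold below ETP (-1.41 ± 0.26, adjusted p = 0.00739), a call lost without ETP replicate 2 or DN3 replicate 2 (adjusted p = 0.0734 and 0.0895). Il20ra, Il20rb, Il22ra1 and Il22ra2, which serve cytokines acting mainly on epithelia, had population means within 0.57 of each other for every gene and were not called.

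Of the 5 IL-17 receptor genes Il17ra and Il17rb were called in the F test. Il17rb, which with Il17ra receives IL-25, stood at 5.84 and 6.17 in HSC, 6.59 and 6.05 in LMPP, 6.38 and 6.75 in CLP, 7.98 and 7.90 in ETP, 10.08 in DN2, and 9.28 and 9.27 in DN3. All thymic arrays lay above all marrow arrays, and DN2 above DN3. ETP was 3.07-fold above LMPP (1.62 ± 0.19, adjusted p = 0.00128) and 2.58-fold above CLP, DN2 4.42-fold above ETP (2.14 ± 0.23, adjusted p = 0.00162) and DN3 2.52-fold above ETP (1.33 ± 0.19, adjusted p = 0.00136). The difference of DN3 from DN2 missed the threshold (-0.81 ± 0.23, adjusted p = 0.183). Over the 11 arrays Il17rb had r = 0.97 with Il2ra, the gene whose windows are set beside it here because both rose in ETP and again in DN2.
Il2ra, chr2:11642542-11642791, strand +: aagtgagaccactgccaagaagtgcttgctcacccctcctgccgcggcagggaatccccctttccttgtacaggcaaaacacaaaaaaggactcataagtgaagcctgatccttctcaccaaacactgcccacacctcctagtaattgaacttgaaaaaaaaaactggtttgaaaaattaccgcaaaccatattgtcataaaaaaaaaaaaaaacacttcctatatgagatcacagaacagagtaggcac
Il17rb, chr14:30008897-30009146, strand -: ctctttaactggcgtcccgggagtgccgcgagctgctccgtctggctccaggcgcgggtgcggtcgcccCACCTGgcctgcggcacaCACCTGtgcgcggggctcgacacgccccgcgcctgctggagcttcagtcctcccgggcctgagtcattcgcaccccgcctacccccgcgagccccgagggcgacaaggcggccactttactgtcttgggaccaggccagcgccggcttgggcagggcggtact
The Il17rb window held the E protein letters on the opposite strand, read as CACCTG, at 181 and 163 bases before the start, and the Il2ra window held none of the 6 motifs.

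Il17ra, the shared chain of the family, varied less. It stood at 8.21 and 7.89 in HSC, 8.79 and 8.61 in LMPP, 8.93 and 9.25 in CLP, 8.92 and 8.61 in ETP, 8.67 in DN2, and 8.35 and 8.30 in DN3 (F test adjusted p = 0.0133). CLP was highest and HSC lowest, and none of the 7 comparisons called it by limma; LMPP against HSC came nearest (0.65 ± 0.16, adjusted p = 0.0663). Il17rc, Il17rd and Il17re had population means within 0.35 of each other for every gene.

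Chains that can form a receptor together were set side by side. Relative to their own HSC means, Il10ra was 2.15 higher and Il10rb 0.34 higher in DN2, and 1.11 higher and 0.92 lower in DN3 (-0.92). Il12rb2 differed from HSC by -1.24 in CLP and 1.84 in DN2, where Il12rb1 differed by 0.01 and 0.00. Il17rb was 4.07 higher in DN2 and Il17ra 0.61 higher. The correlations over the 11 arrays were 0.23 for the IL-10 pair, 0.21 for the IL-12 pair, -0.02 for Il17ra and Il17rb, 0.15 for Il6ra and Il6st and 0.20 for Il4ra and Il13ra1, against 0.98 for the IL-18 pair. No test of a difference between chains was made.

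**Figure D4:**
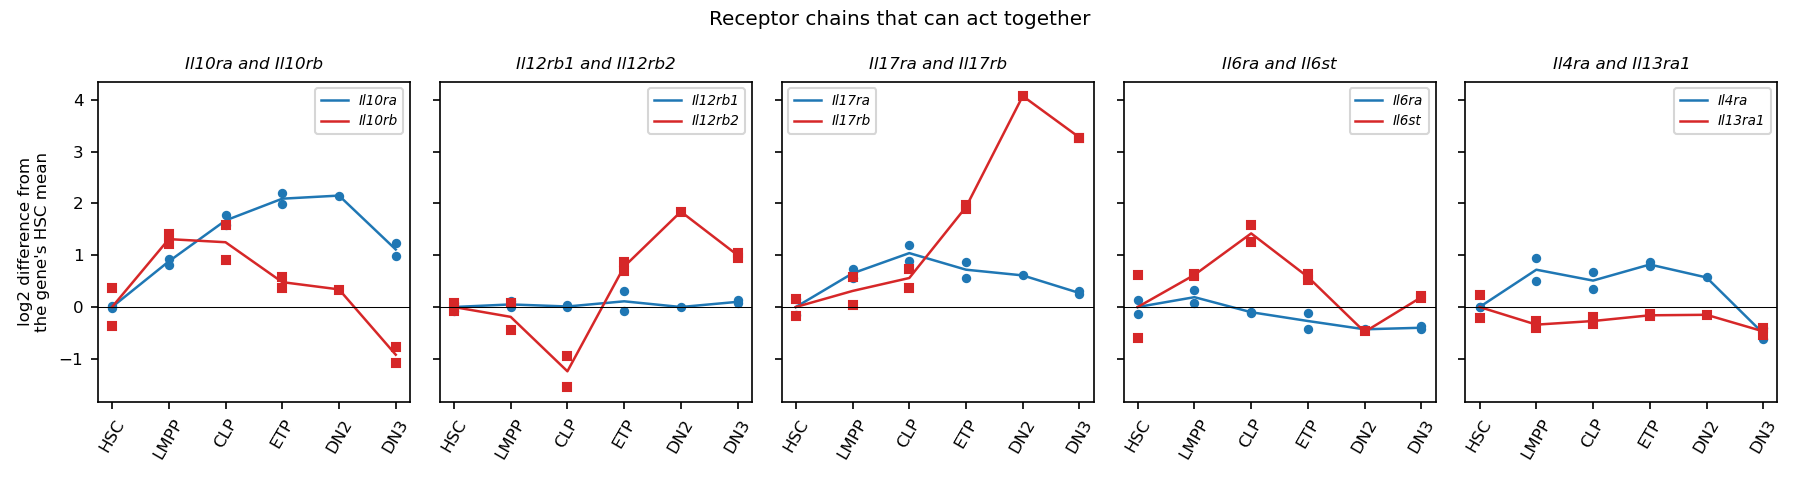
Difference of each array (points) and population mean (lines) from the gene's own HSC mean, on the log2 scale, for 5 pairs of chains that can act together. Il12rb2 and Il17rb reach 1.84 and 4.07 above HSC in DN2 while Il12rb1 and Il17ra stay within 0.11 and 1.04 of it.

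Lists of other genes of these pathways were read in the same fit, in which 12.2% of all genes passed the F test. Of 9 measured JAK and STAT genes 2 were called in the F test, Jak2 and Stat4. Jak1, the kinase that works with the common gamma chain receptors, stayed between 9.80 and 10.42, Stat5a between 7.03 and 8.05 and Stat5b between 7.17 and 8.12, and none of these 3 was called. Jak3 was not analysed here. Jak2, the kinase of the common beta chain, was lower in LMPP (7.68 and 7.99) than in HSC (8.73 and 8.58) by 1.77-fold (adjusted p = 0.011), and not without HSC replicate 1 or LMPP replicate 1 (adjusted p = 0.0743 and 0.0922). Of 21 negative regulators 5 were called in the F test. Socs2, which restrains cytokine signals, was at 7.56 and 7.37 in CLP against 5.89 and 5.76 in LMPP (3.13-fold, adjusted p = 0.00125) and 6.15 and 6.07 in ETP (adjusted p = 0.002). Over all alternatives CLP minus LMPP ran from 1.03 to 1.74 on the log2 scale, against 1.55 to 1.74 when arrays were left out. ETP minus CLP ran from -1.45 to -0.89, against -1.45 to -1.26. In HSC Socs2 was at 7.04 and 6.45, and it was lower in LMPP (-0.92 ± 0.18, limma adjusted p = 0.0195). That call was lost without HSC replicate 1 or either LMPP replicate, with the 2 populations fitted alone and with the mean of probe sets. The difference ran from -1.22 to -0.63 when arrays were left out and up to -0.54 over all alternatives.

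Of 10 targets of STAT5 that act in survival and growth, Bcl2 and Igf1r were called in the F test. Bcl2, which protects lymphoid cells from death, was lowest in ETP. It stood at 7.43 and 7.75 there, 9.15 and 9.25 in LMPP, 9.14 and 9.43 in CLP, and 9.31 and 9.18 in DN3. ETP was 3.24-fold below CLP (-1.69 ± 0.19, adjusted p = 0.000647) and 3.05-fold below LMPP (adjusted p = 0.00118), and DN3 3.14-fold above ETP (adjusted p = 0.000266). In HSC Bcl2 was at 9.21 and 8.66. Il7r was lower in ETP than in CLP and lowest in HSC, and a link of Bcl2 to Il7r was not tested. Of 11 adaptors and kinases of the IL-1 and IL-17 receptors 3 were called in the F test, among them Irak3, an inhibitory member of that pathway, which fell 3.32-fold from HSC to LMPP (adjusted p = 0.000554).

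Of 14 other cytokine receptors measured 4 were called in the F test. Ifngr1, the interferon gamma binding chain, was 2.51-fold higher in DN3 (10.61 and 10.73) than in ETP (9.12 and 9.56; adjusted p = 0.000367). Lifr, which joins Il6st, was 2.14-fold higher in CLP (5.49 and 5.65) than in LMPP (4.38 and 4.57; adjusted p = 0.00158, and 0.0577 with the 2 populations fitted alone). Of 39 ligands 5 were called in the F test. Il15 stood at 7.38 and 7.60 in ETP, 6.19 in DN2 and 3.76 and 4.06 in DN3, 12-fold lower in DN3 than in ETP. Il18, the ligand of Il18r1, fell 5.23-fold over the same span (-2.39 ± 0.31, adjusted p = 0.000658), from a mean of 6.69 to one of 4.30, and Il12a, a subunit of IL-12, 4.99-fold. Il7 stayed between 3.78 and 4.25 on all arrays and was not called.

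The 26 receptor genes that passed no test had population means that differed by a median of 0.35 and by at most 1.30, the latter for Il13ra2 through HSC replicate 1. For 11 of the 26 all 11 arrays were below 6, under the array medians. Among these were Il5ra and Il23r, the binding chains for IL-5 and IL-23, and Il1rapl1, Il1rapl2 and Il20ra. No detection calls were used here, so a low level is not taken as absence.

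**Figure D5:**
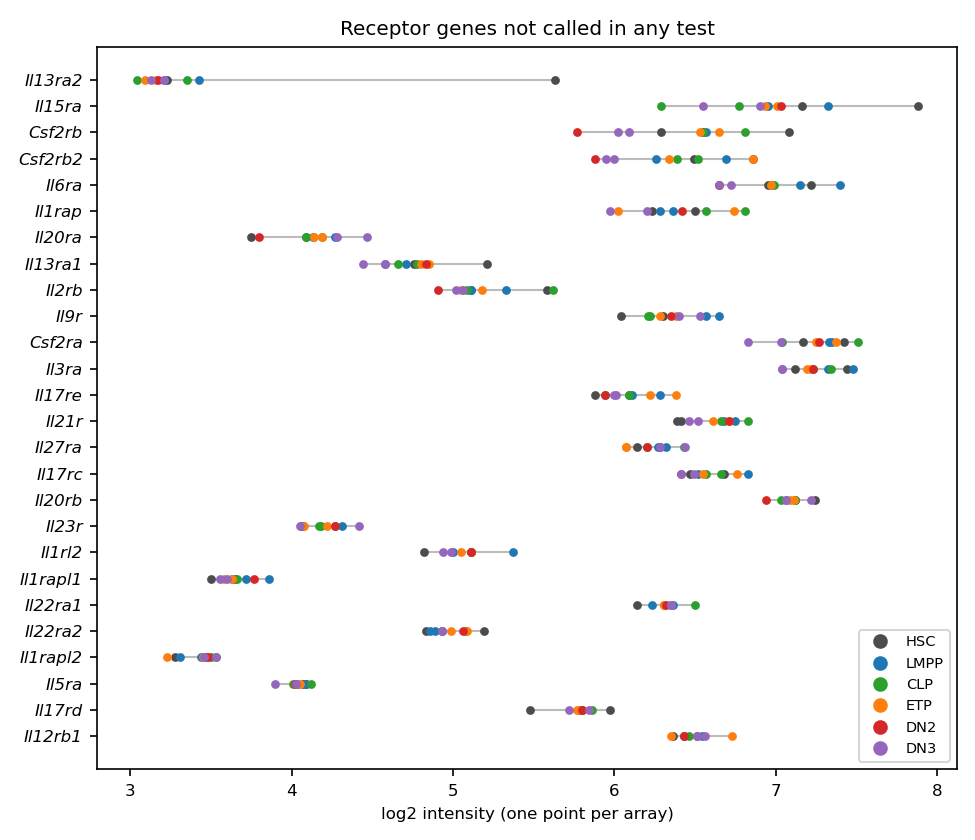
Log2 intensity on each array (points, coloured by population) for the 26 receptor genes that passed neither the F test nor any of the 7 comparisons, ordered by the difference between their highest and lowest population means. Il13ra2 has 1 HSC array at 5.63 and the other 10 between 3.04 and 3.43, and Csf2rb has its DN arrays at its lower end.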

How the data were processed

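Total RNA from sorted cells was labelled with biotin and hybridised to 11 Affymetrix arrays. The authors deposited log2 values of RMA, as named in the labels per the submitters' processing notes. For its version, the probe definitions and the build the answer is the same: not given in the sources used here. That the scale is log2 follows from their span of 2.07 to 13.77. Of 35556 probe sets 21789 had 1 gene symbol in the platform annotation, 1621 several and 12146 none. Only the first were used, and of the 999 genes with several the probe set with the highest mean was taken, leaving 19938 genes with no filter on dim ones. Groups followed the titles; for ETP, DN2 and DN3 the description field says marrow and the tissue label thymus, which was used.

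One limma 3.58.1 fit (R 4.3.3) held 6 population means with 5 residual degrees of freedom, so DN2 was assumed to vary like the others. It gave the F test and 7 two-sided comparisons, adjusted by Benjamini-Hochberg over all genes. SE is the moderated standard error of a difference. On simulated data for CLP minus LMPP (19938 genes) 95 of 100 genes changed by 1 and 100 of 100 changed by 2 on the log2 scale were called, with 9 false calls. Its noise was drawn independently for each gene and array from the fitted spread, and no other gene differed. The simulation therefore checks the code and does not measure how many real differences were called. A receptor is described array by array if it passed any test; other genes come from lists of pathway and marker genes, up to 4 called genes a list. The receptors and lists were chosen with earlier results of these data known. Promoter sequences and gene order are from RefSeq (GRCm38.p6), and all 40 receptors matched it by Entrez ID. Python 3.11.15, pandas 2.3.3 and matplotlib 3.10.9 were used. The alternatives were a filter on dim genes (above 6 on 2 arrays), quantile normalization once more, median centring, the mean of probe sets, a trend with a robust prior, the replicate number as a block, fits of 2 populations alone and leaving out each array.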

Additional observations from a re-analysis of the deposited data

How the results depend on the processing

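Of 44 differences of receptors called in the 7 comparisons 26 kept their direction and call under every alternative run and 18 lost the call under at least 1; none changed direction. With arrays centred on their medians the number of receptors called was 3 in place of 7 for LMPP against HSC and 3 in place of 5 for CLP against LMPP, and with the 2 populations fitted alone it was 2 and 1. Leaving out each array gave 13 to 16 receptors in the F test, 3 to 7 for LMPP against HSC, 1 to 5 for CLP against LMPP, 5 to 6 for ETP against LMPP, 5 to 7 for ETP against CLP, 4 to 8 for DN2 against ETP, 2 to 5 for DN3 against DN2 and 9 to 11 for DN3 against ETP. Without the DN2 array its 2 comparisons have no value. With the replicate number as a block 6 receptors were called for LMPP against HSC, without Il4ra, and 5 for CLP against LMPP, with Il18rap in place of Il31ra. The number of calls did not change in the other comparisons. The deviations of same-numbered arrays correlated between populations with r from -0.258 to 0.283, so the numbers are not taken as pairs. Over all genes the calls for LMPP against HSC fell from 586 to between 310 and 369 without HSC replicate 1 or either LMPP replicate, and to 137 with the 2 populations alone. Without any 1 array of the populations compared they fell from 228 to between 98 and 139 for CLP against LMPP (67 alone), from 460 to between 228 and 284 for ETP against LMPP (195 alone), from 502 to between 248 and 330 for ETP against CLP (231 alone) and from 1310 to between 695 and 849 for DN3 against ETP. They fell from 199 to 92 for DN2 against ETP without ETP replicate 2, and without either DN3 replicate from 358 to 197 or 181 for DN3 against DN2 and from 2430 to 1543 or 1499 in the F test. For DN3 against ETP the fit of the 2 populations alone went the other way, with 1386 genes called against 1310. With 2 arrays a group and 1 of DN2, precision is limited throughout.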
